A study of Ovis aries with 36 samples.

Results

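In brain and pituitary tissue of adult rams (hypothalamus, pars tuberalis, pineal gland), 253 genes stood at nearly the same level in all 3 tissues. They were chosen by their own values. A gene was taken when its median over the 12 libraries of each tissue was at least 50 counts per 1000000 counts of the library (CPM), and when its highest tissue median was at most 1.15 times its lowest. These 253 genes were 7.77% of the 3256 genes with all 3 tissue medians at or above 50 CPM, called the well expressed genes here, and 0.956% of the 26478 gene IDs counted. Their evenness across tissues is therefore how they were chosen and is described below without a test. The choice did not use the difference between sexually active and inactive rams, or the way the genes moved together from library to library. The spread between rams was not used directly either. Wide spread makes a tissue median less certain, so spread is not wholly independent of the choice.

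RNA sequencing was carried out on 36 libraries, 1 from each of the 3 tissues of 12 adult rams of the Rasa Aragonesa breed. Animals 1 to 6 were labelled sexually active and animals 7 to 12 not active (called inactive here), which gives 6 groups of 6 libraries by tissue and state. The study treated state as its first factor and tissue as its second. No treatment, genotype or season is given in the labels, and each library comes from a separate piece of tissue of 1 ram. Within a tissue the libraries come from different rams, so p-values for state rest on the spread between animals. The fit of all 36 libraries together uses 1 spread per gene and does not pair the 3 tissues of a ram.

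Neurons of the hypothalamus control the pituitary and through it the gonads. The pineal gland releases melatonin in the dark, and the pars tuberalis, a sleeve of pituitary tissue around its stalk, carries receptors for that hormone. Genes that every cell uses, such as those for protein synthesis, protein breakdown, splicing, membrane traffic and respiration, are commonly called housekeeping genes. Some of them serve as internal references when the RNA of different tissues is compared, and a reference is useful only when it is even between tissues and also varies little between animals. The counted IDs are Ensembl sheep genes without names or positions, and 0 of them matched a symbol in the gene table used here. The genes are therefore given by ID, with no function, sequence or place in the genome, and markers of the labelled tissues could not be looked up by name.

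In units of 1000000 counts, the depth of a library was 19.3 to 44.3 in the hypothalamus, 22.6 to 35.4 for pars tuberalis and 25.2 to 73.0 for pineal gland. No even gene had fewer than 607 counts in any library, and the median over genes and libraries was 2990.5 counts, so that counting error was small beside the differences between rams. Libraries of a group differed by more than counting noise, with a lowest chi-square per degree of freedom of 35.7 over 90 pairs. Genes restricted to 1 tissue (at least 20 CPM there and 50 times the other medians) were used to check the labels, and 0 of the 253 genes was among them. The 47 genes restricted to the pars tuberalis stood at 15.6% of their own tissue's level in the hypothalamus library of active animal 4, against at most 1.78% in the other hypothalamus libraries. The 32 genes restricted to the hypothalamus stood at 9.14% of theirs in the pineal library of inactive animal 10, against at most 1.54% in the other pineal libraries. In those libraries 3 and 0 of the even genes, respectively, lay beyond 1.5-fold of their tissue median. A further 5 libraries stood apart in the even genes themselves and are described with them, the pars tuberalis of inactive animal 7 and the hypothalamus of animals 2, 6, 10 and 12. In bulk tissue, fewer cells of a type and less RNA per cell cannot be told apart.

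The even genes were mostly of moderate abundance. Their level, taken as the mean of the 3 tissue medians, had a median of 92.0 CPM, with quartiles of 68.0 and 130.0 CPM and a highest value of 781 CPM. The median over all well expressed genes was 119 CPM. Of the even genes, 143 lay between 50 and 100 CPM, 75 between 100 and 200, 32 between 200 and 500, and 3 above 500. As a share of the well expressed genes at the same level, they made up 11.9% of 1201, 5.80% of 1292, 5.51% of 581 and 1.65% of 182. The minimum of 50 CPM in every tissue keeps very uneven genes out of the lowest of these levels. The fall in share with level therefore follows in part from the rule. Together they took a similar part of the libraries of each tissue, which follows in large part from their choice by tissue medians. Their summed counts were 2.90% to 3.48% of a hypothalamus library (median 3.14%), 3.00% to 3.26% of a pars tuberalis library (median 3.16%) and 3.06% to 3.25% of a pineal library (median 3.15%).

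The ratio of the highest to the lowest tissue median was 1.097 at the median of the 253 genes, and ran from 1.01 to the limit of 1.15. For the well expressed genes it was 1.57 at the median and reached 328. The highest median lay in the hypothalamus for 80 genes, in the pars tuberalis for 89 and in the pineal gland for 84. The number of genes kept rising toward the limit and beyond it, with 25 genes at a ratio up to 1.05, 104 between 1.05 and 1.1, 124 between 1.1 and 1.15, and 187 between 1.15 and 1.2. The limit thus cuts through a continuous range. Just inside it, ENSOARG00020010419 had medians of 66.2 CPM for hypothalamus, 70.0 CPM for pars tuberalis and 60.9 CPM for pineal gland, and ENSOARG00020022551 had 71.0, 81.6 and 71.4 CPM in that order. Just outside it, ENSOARG00020015423 had medians of 187, 172 and 163 CPM and ENSOARG00020014368 had 266, 286 and 306 CPM.

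The most abundant even gene was ENSOARG00020020453. Its lowest, median and highest levels were 509, 831 and 936 CPM in the hypothalamus, 579, 732 and 987 CPM in the pars tuberalis, and 600, 782 and 905 CPM in the pineal gland. The next, ENSOARG00020017821, ran through 331, 705 and 954 CPM, then 650, 763 and 897 CPM, then 604, 727 and 872 CPM in the same order of tissues. For both genes the lowest of all 36 values came from a hypothalamus library, and the ranges of the 3 tissues overlapped. At the other end, ENSOARG00020019779 stood at 47.0, 51.8 and 56.5 CPM in the hypothalamus, 44.1, 51.5 and 57.4 CPM in the pars tuberalis, and 50.5, 52.1 and 58.5 CPM in the pineal gland. All 36 of its values lay within 1.33-fold of each other, the narrowest range of the 253 genes. ENSOARG00020012323, the other gene near the minimum, reached from 39.6 to 57.5 CPM around a median of 50.1 CPM in the hypothalamus, from 45.6 to 60.8 CPM around 51.6 CPM in the pars tuberalis, and from 47.3 to 61.8 CPM around 54.7 CPM in the pineal gland.

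An even median did not require even animals. The gene with the smallest ratio, ENSOARG00020010532, had tissue medians of 90.2, 90.3 and 89.8 CPM. Its single libraries nevertheless ran from 52.4 to 124 CPM in the hypothalamus, from 50.2 to 95.4 CPM in the pars tuberalis and from 74.4 to 103 CPM in the pineal gland. The next smallest ratio belonged to ENSOARG00020026195, with medians of 160, 160 and 158 CPM. Its libraries spanned 111 to 184 CPM, 136 to 173 CPM and 136 to 164 CPM in the same order.

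**Figure D1:**
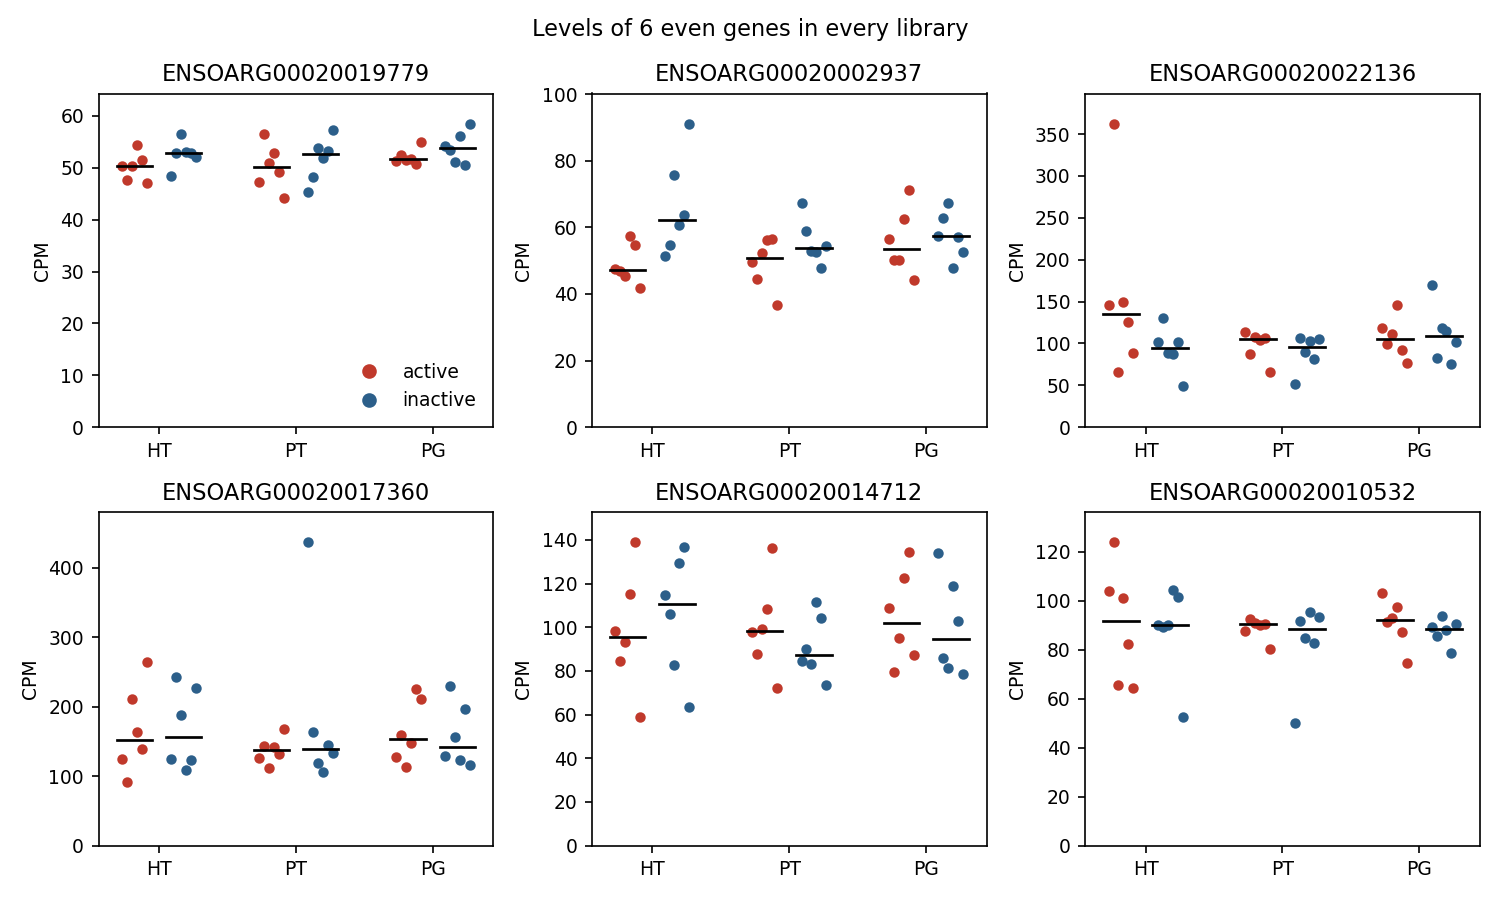
Levels of 6 even genes in each of the 36 libraries, in CPM on a linear axis that starts at 0, by tissue, with HT for hypothalamus, PT for pars tuberalis and PG for pineal gland, active rams in red, inactive rams in blue and a bar at the median of each group of 6. The level is alike in the 3 tissues of every panel, while the 36 points spread from 1.33-fold in ENSOARG00020019779 to 7.36-fold in ENSOARG00020022136.

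The rule is tied to how libraries are scaled. CPM divides by the library total. Scaling by the trimmed mean of M values (TMM), which sets libraries by their typical gene, gave factors with a median of 0.962 for hypothalamus libraries, 1.09 for those of the pars tuberalis and 0.978 for pineal ones. On TMM-scaled CPM the ratio of the 253 genes had a median of 1.16 and reached 1.34, and 121 of them stayed within the limit. The lowest tissue was then the pars tuberalis for 219 genes, the pineal gland for 21 and the hypothalamus for 13. The same rule applied to TMM-scaled CPM chose 312 genes, of which 119 were among the 253 (47.0% of the 253 and 38.1% of the 312).

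**Figure D2:**
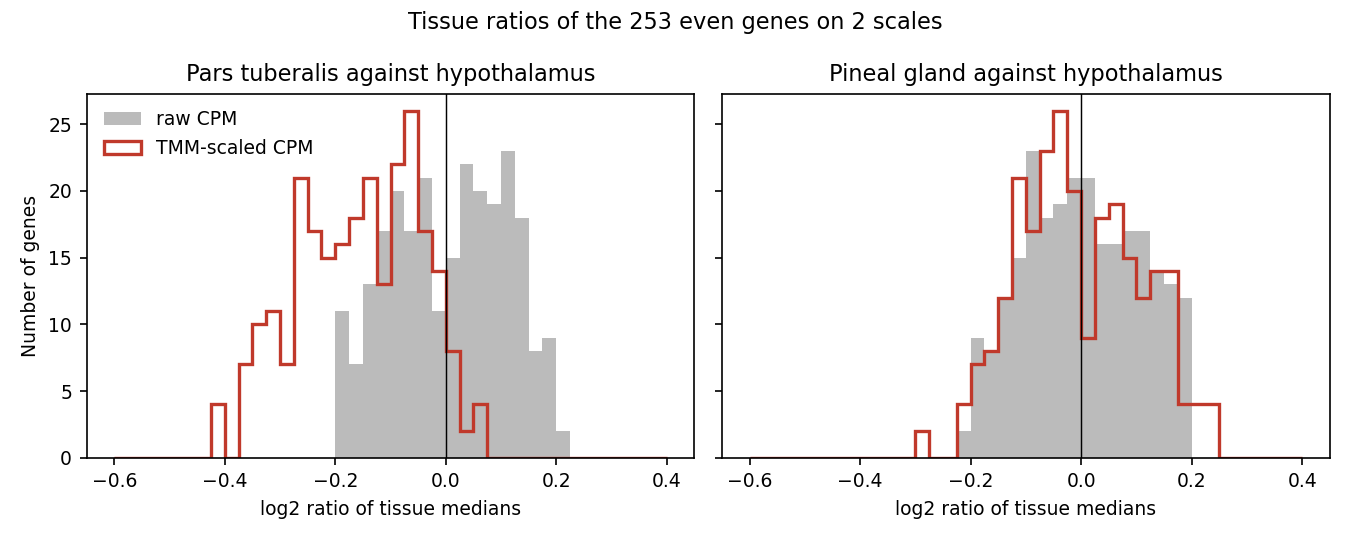
Number of even genes by the log2 ratio of their tissue medians, for the pars tuberalis against the hypothalamus (left) and the pineal gland against the hypothalamus (right), in raw CPM (grey) and in TMM-scaled CPM (red outline). In the left panel the 253 genes lie on both sides of 0 in raw CPM and mostly below 0 after TMM scaling, where the pars tuberalis is the lowest tissue for 219 of them.

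The fitted tissue differences are given only as a description, since tissue levels chose the genes. All 253 genes passed the filter on low counts and were among 16773 genes fitted together in edgeR's quasi-likelihood model with TMM scaling, with p-values adjusted by Benjamini and Hochberg over all genes. At an adjusted p below 0.05, 90 even genes were called between the pars tuberalis and the hypothalamus, which is 35.6% of them beside 72% of all genes tested. All 90 were lower in the pars tuberalis. Between the pineal gland and the hypothalamus 27 were called (12 higher and 15 lower in the pineal gland), or 10.7% beside 63.8% of all genes tested. Between the pineal gland and the pars tuberalis 80 were called, or 31.6% beside 70.5%, all of them higher in the pineal gland. The median log2 difference of the even genes was -0.15 for the pars tuberalis against the hypothalamus and 0.16 for the pineal gland against the pars tuberalis, where all genes tested had medians of 0.01 and 0.02. Without scaling beyond the library total these medians became 0.01 and 0.02, and those of all genes tested became 0.16 and -0.12. The calls then numbered 29 (16 higher and 13 lower in the pars tuberalis), 22 (14 higher and 8 lower in the pineal gland) and 28 (10 higher and 18 lower in the pineal gland). These are 11.5%, 8.70% and 11.1% of the even genes, beside 73.4%, 63.3% and 70.9% of all genes tested on that scale. The lower level in the pars tuberalis was thus seen with TMM scaling and not on raw CPM, the scale on which the genes were chosen as even. Scaling moves all genes of a library alike. The gap between the even genes and the typical gene therefore stays nearly the same on both scales, and nothing is read from it.

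Sexual state was not used to choose the genes, and edgeR called no even gene between active and inactive rams. By the quasi-likelihood test of edgeR, adjusted by Benjamini and Hochberg over 16773 genes, 0 of 253 passed an adjusted p of 0.05 in the hypothalamus, beside 0.0954% of all genes tested. Neither of the other tissues gave a call (0 genes in each, beside 0% of all genes tested in each). At an unadjusted p below 0.05, 15 even genes (5.93%) stood in the hypothalamus, beside 9.33% of all genes tested. The pars tuberalis had 2 (0.791% beside 3.54%) and the pineal gland 0 (0% beside 1.94%). The lowest edgeR adjusted p of an even gene was 0.146 for hypothalamus, 0.967 for pars tuberalis and 1 for pineal gland. Fitted on the 12 libraries of each tissue alone, edgeR also called 0 even genes, beside 0% of all genes tested in each tissue. At an unadjusted p below 0.05 these fits gave 2, 1 and 0 even genes (0.791%, 0.395% and 0%), beside 4.54%, 2.7% and 1.69%. The lowest adjusted p of an even gene in the hypothalamus fit was 0.999. DESeq2 called 1 even gene in the hypothalamus (0.395%), beside 0.835% of all genes tested. It called 0 in the pars tuberalis, beside 0.00596%, and 0 in the pineal gland, beside 0.119%. At an unadjusted p below 0.05 it gave 21, 2 and 0 even genes (8.30%, 0.791% and 0%), beside 10.1%, 3.97% and 2.28% of all genes tested. Without the 5 libraries that stood apart edgeR called 0 in each tissue, with 11, 1 and 1 at an unadjusted p below 0.05 (4.35%, 0.395% and 0.395%, beside 6.97%, 2.36% and 2.59%). Neither direction prevailed, since 116 genes were fitted higher and 137 lower in active than in inactive hypothalamus, 109 and 144 for pars tuberalis, and 134 and 119 for pineal gland.

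The fitted differences between states were small. The median size of the log2 difference over the even genes was 0.10 for hypothalamus, 0.09 for pars tuberalis and 0.06 for pineal gland, and the largest were 0.70, 0.50 and 0.27. The 95% interval of the difference lay wholly inside 1.5-fold in either direction for 225 genes (88.9%) of the hypothalamus test, 213 (84.2%) of that for pars tuberalis and 240 (94.9%) of that for pineal gland. Among the well expressed genes those shares were 76.2%, 77% and 87.6%. It lay inside 2-fold for 250, 250 and all 253 even genes. These intervals, the p-values of the fit of all 36 libraries and the SEs below for single tissues use 1 spread per gene shared by all 36 libraries. The median SE was thus 0.132 in every tissue. The SD between rams, as a percent of the mean, had medians of 17.5% for hypothalamus, 13.9% for pars tuberalis and 11.3% for pineal gland. Hypothalamus intervals are therefore likely too narrow and hypothalamus p-values from that fit too low. These counts do not give the precision of each tissue alone. No even gene had active and inactive libraries that did not overlap in any tissue, where 0.113%, 0.0894% and 0.0537% of all genes tested did.

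In the hypothalamus the lowest p of a gene lower in active rams belonged to ENSOARG00020002937. On TMM-scaled CPM its lowest, median and highest levels were 46.8, 48.3 and 53.7 in active rams and 53.4, 64.0 and 104 in inactive rams. The groups overlapped only between 53.4 and 53.7 CPM, and the inactive rams spread more widely. The log2 difference was -0.52 (SE 0.145, 6 rams a state), with an adjusted p of 0.146 in edgeR and of 0.04997 in DESeq2, which made this the gene called by DESeq2. Fitted on the hypothalamus libraries alone, edgeR gave this gene an adjusted p of 0.999. The next, ENSOARG00020004416, stood at 51.1, 61.3 and 75.4 CPM in active and 60.4, 70.1 and 99.4 CPM in inactive rams (log2 difference -0.25, SE 0.102, edgeR adjusted p 0.386). Without inactive animal 10, whose value was the highest, that difference was -0.14.

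Both genes named as higher in active rams in the hypothalamus had 1 library far above the rest, that of animal 2. ENSOARG00020022163 stood at 165, 182 and 445 CPM in active rams and at 91.7, 145 and 182 CPM in inactive rams. Its log2 difference was 0.67 (SE 0.244, edgeR adjusted p 0.327), and 0.37 without animal 2. ENSOARG00020022136 stood at 67.9, 131 and 380 CPM in active and at 56.3, 99.1 and 128 CPM in inactive rams. Its log2 difference of 0.70 (SE 0.257, edgeR adjusted p 0.340) became 0.23 without animal 2. The value of animal 2 was thus the highest of the 12 for both genes, and the remaining values of the states overlapped.

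In the pars tuberalis none of the genes with the lowest p passed the test, at an edgeR adjusted p of 0.967 for each. ENSOARG00020026475 stood at 60.8, 67.5 and 75.8 CPM in active and 47.8, 59.2 and 69.7 CPM in inactive rams (log2 difference 0.19, SE 0.0976). ENSOARG00020025253 stood at 50.5, 80.2 and 87.9 CPM against 44.3, 61.6 and 72.7 CPM, a log2 difference of 0.29 (SE 0.174). The states overlapped in both genes. Fitted lower in active rams were ENSOARG00020023964, at 50.2, 64.7 and 82.5 CPM against 65.7, 77.8 and 100.4 CPM (log2 difference -0.27, SE 0.114), and ENSOARG00020022952, at 54.2, 64.9 and 75.6 CPM against 65.2, 73.5 and 127 CPM (-0.32, SE 0.147). The highest inactive value of both came from animal 7, and without that animal the difference of ENSOARG00020022952 was -0.15.

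In the pineal gland too, none of the named genes passed the test, at an edgeR adjusted p of 1 for each. ENSOARG00020008918 stood at 82.6, 109 and 125 CPM in active and at 84.4, 86.8 and 105 CPM in inactive rams (log2 difference 0.20, SE 0.100), and ENSOARG00020015887 at 84.7, 98.6 and 119 CPM against 75.2, 85.1 and 105 CPM (0.16, SE 0.106). Fitted lower in active rams were ENSOARG00020009062, at 37.1, 55.7 and 73.5 CPM against 54.4, 68.9 and 85.9 CPM (-0.26, SE 0.139), and ENSOARG00020014081, at 63.7, 70.1 and 85.6 CPM against 75.9, 79.5 and 90.0 CPM (-0.16, SE 0.102). The states overlapped in all 4 genes. Leaving out 1 active ram moved a pair of these values most, to -0.16 for ENSOARG00020009062 without animal 4 and to 0.09 for ENSOARG00020015887 without animal 5.

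Summing the 3 libraries of each ram and comparing 6 active with 6 inactive animals gave the same picture over 17232 genes. No even gene was called by edgeR after Benjamini-Hochberg adjustment, beside 0% of all genes tested, and 3 (1.19%) had an unadjusted p below 0.05, beside 4.66%. DESeq2 called 0, beside 0.0638% of all genes tested, with 4 at an unadjusted p below 0.05 (1.58%, beside 5.57%). The lowest adjusted p in edgeR was 0.933, shared by ENSOARG00020022163 (log2 difference 0.33, SE 0.145), ENSOARG00020006190 (0.12, SE 0.0578), ENSOARG00020002937 (-0.23, SE 0.0879) and ENSOARG00020022952 (-0.20, SE 0.0852). Without active animal 6 the number at an unadjusted p below 0.05 rose to 33 (13.0%, beside 12.4% of all genes tested), still with 0 called and a lowest edgeR adjusted p of 0.349. The test of an interaction between state and tissue called 0 even genes in edgeR, beside 0% of all genes tested, with 2 at an unadjusted p below 0.05 (ENSOARG00020004416 at 0.0391 and ENSOARG00020021866 at 0.0440). Among all genes tested 3.24% had an unadjusted p below 0.05 for this interaction in edgeR. DESeq2 also called 0, beside 0.0119% of all genes tested, with 3 at an unadjusted p below 0.05 (1.19%, beside 3.93%).

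Between rams of the same tissue the even genes were slightly steadier at the median than the well expressed genes as a whole. This is a description with no test, and spread is not wholly independent of how the genes were chosen. Spread was measured as the coefficient of variation (CV, the SD as a percent of the mean) of CPM over the 12 rams. Its median over the even genes was 17.5% for hypothalamus, 13.9% for pars tuberalis and 11.3% for pineal gland, where the well expressed genes had 19.8%, 15.7% and 13.4%. Without the 5 libraries that stood apart the medians of the even genes were 12.6% for hypothalamus and 9.42% for pars tuberalis, and the pars tuberalis then lay below the pineal gland. The pars tuberalis of animal 7 alone turned that order. The CV of single even genes ran from 4.61% to 64.8%, from 3.15% to 55.4% and from 2.75% to 39.7% in the same order. A CV under 10% was found for 23, 60 and 88 even genes (9.09%, 23.7% and 34.8%), against 6.02%, 17.7% and 26.1% of the well expressed genes. The hypothalamus gave the widest spread for 167 even genes (66.0%), and for 65.3% of the well expressed genes.

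**Figure D3:**
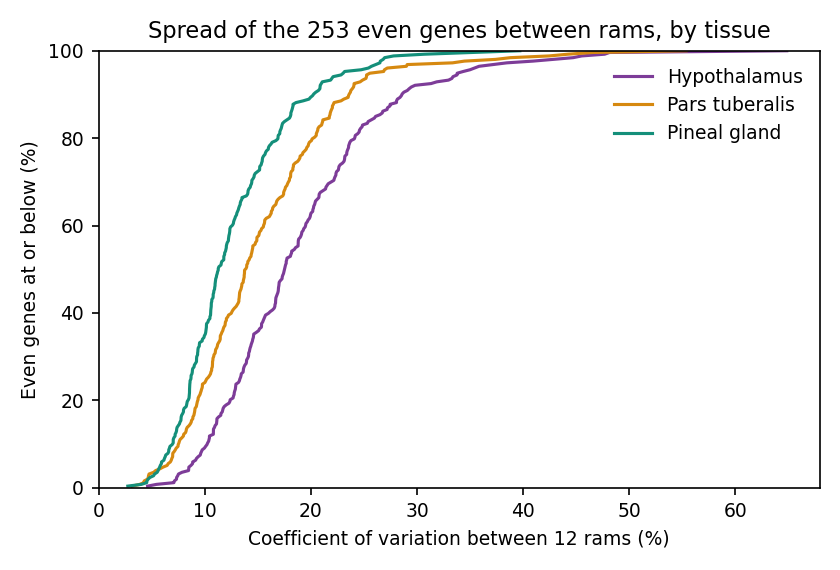
Cumulative share of the 253 even genes, in percent, by their CV between the 12 rams of a tissue, in percent, with a line per tissue. The pineal gland lies to the left and the hypothalamus to the right, with medians of 11.3%, 13.9% and 17.5% for the pineal gland, pars tuberalis and hypothalamus, where the second is 9.42% without animal 7.

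Over all 36 libraries the even genes ranged less, which follows in part from their choice. The highest library was 2.09 times the lowest at the median of the even genes and 3.04 times at the median of the well expressed genes. Within 2-fold over all libraries lay 112 even genes (44.3%, against 14.0% of the well expressed genes), and within 3-fold 212 (83.8%, against 48.9%). Of the 100 well expressed genes with the lowest CV over all 36 libraries, 57 were even genes. Of the 100 with the lowest CV within tissues, 16 were. A short list of steady genes thus depended on whether tissue differences entered the measure.

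The steadiest and the least steady even genes show what the medians hide. ENSOARG00020001317 had the smallest mean CV, 6.02%, with a lowest, median and highest level of 62.3, 75.4 and 88.9 CPM in the hypothalamus, 68.4, 71.5 and 75.2 CPM in the pars tuberalis, and 64.5, 69.2 and 75.5 CPM in the pineal gland. ENSOARG00020019779, described above, was next at 6.11%. The largest mean CV, 38.9%, belonged to ENSOARG00020017360, at 91.9, 152 and 264 CPM, then 105, 138 and 437 CPM, then 113, 152 and 230 CPM. Its highest value came from the pars tuberalis of inactive animal 7. ENSOARG00020022136, with a mean CV of 37.0%, ran through 49.2, 101 and 362 CPM, then 51.8, 103 and 114 CPM, then 74.98, 106 and 170 CPM, and its highest value came from the hypothalamus of active animal 2. In both genes 1 library stretched the range, while the tissue medians stayed within 1.15-fold.

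Even tissue medians did not make a gene even within a ram. Taking the 3 libraries of a ram, the ratio of the highest to the lowest tissue had a median of 1.23 for the even genes and 1.70 for the well expressed genes. The lower value of the even genes follows in part from their choice by tissue medians. An even gene kept within 1.15-fold in a median of 3 of the 12 rams and in at most 10, and 0 genes did so in all 12. Within 1.5-fold in every ram lay 62 even genes. The steadiest by this count, at 10 of 12 rams, were ENSOARG00020006992, with medians of 129, 119 and 129 CPM, and ENSOARG00020023689, with 59.5, 62.7 and 58.1 CPM, both singled out after their values were seen. Rams differed widely, since 112 even genes lay within 1.15-fold in animal 9 and 111 in animal 4, against 42 in animal 12 and 19 in animal 7.

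The libraries of animals 7 and 12 were among those that stood apart. In the pars tuberalis of inactive animal 7, 101 of the 253 genes lay beyond 1.5-fold of their tissue median and 29 beyond 2-fold, while the other pars tuberalis libraries had 0 to 7 beyond 1.5-fold. In the hypothalamus, inactive animal 12 had 50 such genes, active animal 2 had 36, inactive animal 10 had 33 and active animal 6 had 31, while the others had 0 to 15. The pineal libraries had 0 to 9. The hypothalamus libraries of animals 6 and 12 were the shallowest of that tissue, at 19.3 and 19.8 in units of 1000000 counts, and those of animals 2 and 10 were deep, at 39.1 and 42.9. Among other deep hypothalamus libraries, animal 11 had 3 such genes (depth 44.3), animal 9 had 5 (39.8) and animal 5 had 0 (37.4). The pars tuberalis library of animal 7 had a depth of 26.8, and the genes restricted to the pars tuberalis stood at 58.7% of their tissue's level there. The part of depth and of tissue makeup in these libraries was not tested.

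**Figure D4:**
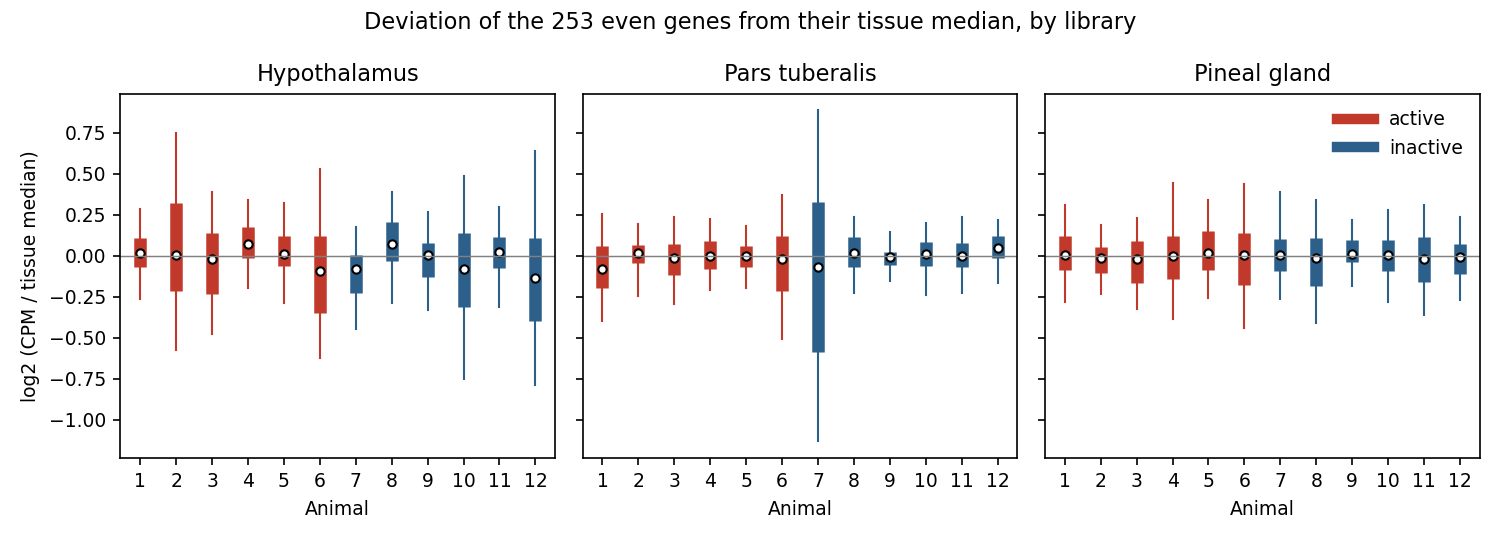
Deviation of the 253 even genes from their tissue medians in each of the 36 libraries, as log2 of CPM over the tissue median, by tissue and animal, with active rams in red and inactive rams in blue. Points are medians over the genes, thick bars the middle 50% and thin lines the middle 90%; the pars tuberalis library of inactive animal 7 is the widest, and the hypothalamus libraries of animals 12, 2, 10 and 6 are the widest of their tissue.

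The even genes that left their medians did so in 2 opposite groups. After subtraction of each gene's tissue mean on the log2 scale, the first principal component took up 49.7% of what varied in the 253 genes over the 36 libraries, and the second held 13.6%. For the other 3003 well expressed genes the first component held 45.1%, so this pattern was not particular to the even genes. It held 41.3% without the pars tuberalis of animal 7 and 37.1% without the 5 libraries named above. Along this axis 37 even genes had a correlation above 0.7 with the component (14.6%, against 13.9% of the other well expressed genes), 60 had one below -0.7 (23.7%, against 23.5%), and 60 lay within 0.3 of 0. These groups were cut from the same values, and the counts describe these libraries. Each library's score on the component correlated with its log2 depth at -0.79 over the 12 hypothalamus libraries. The correlation was -0.14 for pars tuberalis and -0.42 for pineal gland. With the TMM factor it was -0.52, -0.89 and -0.89 in the same order. The part of depth and of scaling in this axis was not tested.

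In the pars tuberalis of animal 7 the positive group stood at a median of 167% of its tissue medians, the negative group at 58.1% and the group near 0 at 97.4%. The hypothalamus of animal 12 went the same way, at 127%, 65.6% and 92.2%, and so did that of animal 6, at 124%, 71.3% and 96.8%. The hypothalamus of animal 2 went the opposite way, at 80.1%, 129% and 104%, as did that of animal 10, at 82.3%, 113% and 86.4%. In the pineal gland the same groups stayed closer to their medians, at 84.5% to 122%, 82.5% to 112% and 95.1% to 103%. Of the 4 hypothalamus libraries named, 1 active and 1 inactive ram thus stood on either side. This balance depends on which libraries were named. The hypothalamus of active animal 3 also went the way of animal 12, at 120%, 79.2% and 98.7%. Its score on the component was 0.213, larger in size than the -0.201 of animal 10. Animals 1, 4 and 11 leaned the other way, with smaller scores of -0.136, -0.130 and -0.134.

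Single genes show the size of these moves. ENSOARG00020001902, of the positive group, had a lowest, median and highest level of 233, 257 and 536 CPM in the pars tuberalis and of 200, 242 and 410 CPM in the hypothalamus. Its highest values came from animal 7 and animal 12. ENSOARG00020011717, of the negative group, stood at 307, 524 and 591 CPM in the pars tuberalis, lowest in animal 7, and at 384, 565 and 881 CPM in the hypothalamus, lowest in animal 12 and highest in animal 2. Both were singled out after their values were seen. In the groups above 0.7 and below -0.7 the median of the mean CV was 19.3% and 17.7%, and it was 11.4% in the group near 0. Over all 36 libraries the median range was 2.56-fold, 2.61-fold and 1.72-fold in the same order. Genes near 0 were chosen for little correlation with the component of largest share, so these gaps follow in part from the grouping.

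**Figure D5:**
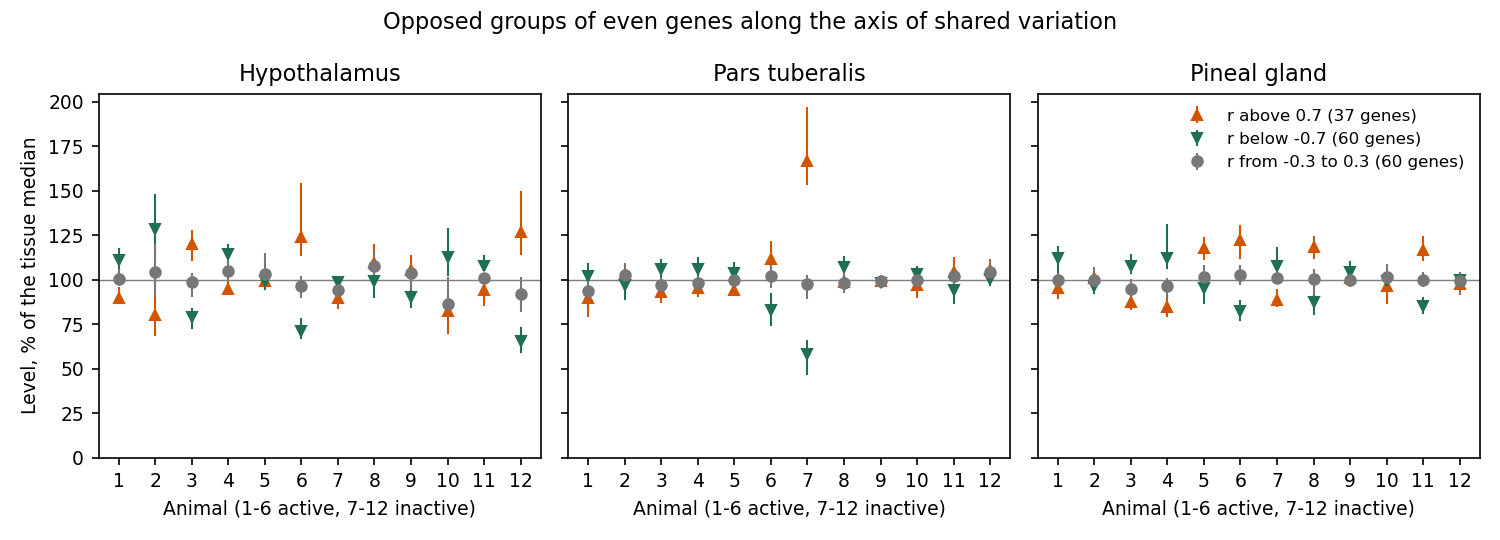
Median level of 3 groups of even genes in each library, as a percent of their tissue medians, by tissue and animal, with bars from the lower to the upper quartile over the genes, for 37 genes with a correlation above 0.7 with the first component, 60 below -0.7 and 60 within 0.3 of 0. The positive and negative groups part most in the pars tuberalis of animal 7 (167% against 58.1%), and the group near 0 stays close to 100% in the pineal libraries.

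The level of an even gene in 1 tissue of a ram said little about its level in another tissue of the same ram. The correlation between tissues was taken over 12 rams on log2 TMM-scaled CPM, after subtraction of the mean of each tissue and state. Its median over the even genes was 0.03 between hypothalamus and pars tuberalis, 0.14 when hypothalamus was set against pineal gland, and 0.18 for the remaining pair. The well expressed genes had 0.04, 0.15 and 0.13. These correlations are descriptions, since all genes of a library share its depth and makeup. A single even gene, ENSOARG00020014712, exceeded 0.8 in all 3 pairs, as did 6 of the well expressed genes, itself included. Its lowest, median and highest levels were 59.1, 102 and 139 CPM in the hypothalamus, 72.3, 93.8 and 136 CPM in the pars tuberalis and 78.4, 98.9 and 134 CPM in the pineal gland. Animal 5 was the highest ram in every tissue, while animal 6 was the lowest in the hypothalamus and the pars tuberalis and animal 12 in the pineal gland. This gene was singled out after its values were seen.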

How the data were processed

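A table of raw counts was deposited, with 26478 Ensembl sheep IDs (3860 of them without a count) and 36 libraries. Per the labels' protocols, stranded messenger RNA libraries with molecular identifiers were sequenced, and the submitters' processing notes name STAR 2.7.8a, HTSeq, edgeR and FastQC. Not given in the sources used here: build, annotation, strand setting and any collapsing by identifier. Overlapping genes and near-identical gene copies are therefore uncertain. CPM was computed from the column totals. Tests used R 4.3.3 with edgeR 4.0.16 (quasi-likelihood, robust, TMM, minimum count 10, 6 group means, all 36 libraries), and alternatives DESeq2 1.42.0 and limma 3.58.1. The SE is the absolute log2 difference over the square root of F. The code was tested on simulated data. The members and lists were chosen with earlier results of these data known. Named genes are at most 2 IDs at each end of a description (p for state, level, ratio, spread), unless stated. Symbol lists and markers could not be used, since IDs carry no names. An animal number shared by 3 libraries in the labels pairs the tissues of a ram, whose correlations are given above.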

Additional observations from a re-analysis of the deposited data

Results flagged for a closer look

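In groups of 6 libraries, a value far from the other 5 was found 9 times in 42 groups. Chance marks about 1 in 20 groups of unselected, independent values. That rate is no yardstick here, since 5 of the 9 are genes named for their low p and 4 come from the pars tuberalis library of animal 7. In the hypothalamus, active animal 2 stood at 445 TMM-scaled CPM for ENSOARG00020022163 (next 221) and at 380 CPM for ENSOARG00020022136 (next 145). Inactive animal 10 stood at 99.4 CPM for ENSOARG00020004416 in the same tissue (next 74.7). In the pars tuberalis, inactive animal 7 stood at 100.4 CPM for ENSOARG00020023964 (next 78.7) and at 127 CPM for ENSOARG00020022952 (next 82.5). The same library had 101 even genes beyond 1.5-fold of their tissue median, where the next inactive library had 0, and a score of 0.557 on the first principal component, where the next was 0.0124. The pars tuberalis of active animal 6 had 7 such genes (next 2) and the pineal gland of inactive animal 8 had 9 (next 3). The values were neither removed nor reweighted in the main tests, and their cause was not tested.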

How the results depend on the processing

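The number of even genes followed the limits chosen, with 129 at a ratio of 1.1, 440 at 1.2, 434 at a minimum of 25 CPM and 104 at 100 CPM, and 312 on TMM-scaled CPM. Leaving out each animal gave 251 to 274 genes, of which 214 to 226 were among the 253. Calls between states stayed at 0 in edgeR under every alternative run, beside at most 0.321% of all genes tested. That share was found in the hypothalamus without inactive animal 8. There the lowest edgeR adjusted p of an even gene was 0.0595, and 31 had an unadjusted p below 0.05 (12.3% beside 12.8%). DESeq2 called 1 even gene in the hypothalamus (0.395% beside 0.835%). Over 16 pairs of a named gene and a state test, 308 values under alternatives kept their direction, and 1 passed the threshold (ENSOARG00020002937 in DESeq2). These genes were picked for their low p in the same libraries, so their direction was likely to be kept. Without scaling beyond the library total, 29 even genes were called between the pars tuberalis and the hypothalamus and 28 between the pineal gland and the pars tuberalis. The median log2 differences of these comparisons were then 0.0109 in place of -0.15 and 0.0198 in place of 0.16. The change of scale itself gives this, since the genes were chosen as even on raw CPM. The median CV ranged over left-out animals from 16.2% to 18.2% in the hypothalamus, 9.42% to 14.4% in the pars tuberalis and 11.0% to 11.6% in the pineal gland. The share of the first component ranged from 42.6% to 53.3%. Alternatives chosen after seeing the data left out the pars tuberalis of animal 7, which gave a CV of 9.42% there and a share of 41.3%, or all 5 libraries that stood apart, which gave a CV of 12.6% in the hypothalamus and of 9.42% in the pars tuberalis and a share of 37.1%. On TMM-scaled CPM the CV in the pineal gland was 11.9%, and the SD of a library's median log2 deviation moved from 0.0663, 0.0361 and 0.0130 to 0.0358, 0.0703 and 0.0478 in that order of tissues.

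With the animal as a replicate block, which pairs the tissues of a ram, 89, 31 and 90 even genes were called between tissues in place of 90, 27 and 80 (35.2%, 12.3% and 35.6%, beside 73.6%, 65.7% and 72.3% of all genes tested), and 0 by the interaction (5 at an unadjusted p below 0.05, or 1.98% beside 2.03%). State compares different animals and takes no such block.

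Depth did not limit the detection of these genes, all at 607 counts or more. With 6 rams a state, intervals inside 1.5-fold were reached for 213 to 240 of the 253 genes, so smaller differences between states could not be seen for every gene.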

Other observations

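Applied to 1 state alone, the rule chose 296 genes in the 6 active rams and 225 in the 6 inactive rams. The lists shared 116 genes, which are 39.2% of the first and 51.6% of the second, and 111 of these were among the 253. The medians of 6 rams vary more than those of 12, and no difference between the states was tested by these lists.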
